A study of Homo sapiens with 6 samples.

Results

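The immediate early genes described here are *FOS*, *FOSB*, *FOSL1* and *FOSL2* of the FOS family, *JUN*, *JUNB* and *JUND* of the JUN family, and *EGR1*, *IER2* and *IER3*. They were chosen by name, 10 of the 67060 genes in the count table. The data come from SH-SY5Y, a human neuroblastoma cell line that the labels call a neuronal progenitor. Cells grown in DMEM with fetal bovine serum received an adenovirus for 24 h that carried either GFP (Ad CMV GFP) or the mouse coding sequence of *Esrrg* with a 3xFlag tag (Ad CMV 3xFlag-*Esrrg*), both behind the CMV promoter. *Esrrg* encodes the nuclear receptor ERRγ, and the comparison asks which transcripts differ when ERRγ is added. There were 3 libraries per group, numbered 1, 3 and 4 for GFP and 2, 3 and 4 for ERRγ, made from total RNA depleted of rRNA. The control cells carried a virus too, all libraries come from 1 cell line and 1 time, and the labels do not say whether replicates were separate cultures, so p-values measure only the spread between these libraries.

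Immediate early genes are transcribed within minutes of a stimulus such as a growth factor, serum, stress or, in neurons, electrical activity, without new protein synthesis. Kinases of the MAP kinase cascades activate factors that already sit at their promoters, chiefly SRF with its ELK partners at the CArG box and CREB at the cAMP response element (CRE). The FOS and JUN proteins then pair through leucine zippers as AP-1, which binds the AP-1 site and switches on later genes. JUN proteins can pair with each other, whereas FOS proteins need a JUN partner. EGR1 is a zinc finger transcription factor, and IER2 and IER3 are small proteins of the same early response. Most of these messages decay quickly, but *FOSL1*, *FOSL2* and *JUND* are known for later or steadier levels than *FOS*.

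The libraries held 24969759 to 29700980 counts on genes in the GFP group and 26513620 to 40859666 in the ERRγ group. Reads assigned to no gene (no-gene reads) made up 51.3% to 52.2% of the GFP libraries, and 46.6%, 31.6% and 29.5% of ERRγ replicates 2, 3 and 4. ERRγ replicate 2 thus stood between the GFP libraries and the other 2 ERRγ libraries, and this share moved with the groups. *ESRRG*, the gene added, had 83.6, 90.4 and 86.9 normalized counts per 1000000 (CPM) with GFP, and 570, 772 and 778 CPM with ERRγ. It was 3.02 ± 0.14 (SE) higher on the log2 scale in edgeR's quasi-likelihood test (adjusted p = 6.3e-07), although the reads of a mouse sequence were counted on the human gene. Of the adrenergic neuroblastoma markers, *TH* and *CHGA* were listed at 0 in every library, and *HAND2* was present. For *CHGA* the 0 gives no level, since 90.3% of the 31-base words of its transcripts also occur on alternate contigs of GRCh38, and for *TH* that share was 0. The 12 adrenergic markers summed to 866 to 925 CPM with GFP and 616 to 815 with ERRγ, with 1 higher and 4 lower of 10 tested. The 10 mesenchymal markers summed to 6026 to 6166 CPM with GFP and 6391 to 6725 with ERRγ, with 0 higher by edgeR (2 at an unadjusted p under 0.05, 0 with DESeq2) and 4 lower (*COL1A2*, *LUM*, *DCN* and *YAP1*). The 8 antiviral markers summed to 19.6 to 21.6 CPM with GFP and 17.9 to 21.04 with ERRγ, with 1 higher (*ISG15*) and 1 lower (*OAS1*) of 6 tested, and *CXCL10* was at or near 0. The part of these differences in the results below was not tested.

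Of the 10 immediate early genes, 7 were higher with ERRγ in edgeR's test, namely *FOS*, *FOSL1*, *FOSL2*, *JUN*, *JUNB*, *EGR1* and *IER2*. None was lower (0 by edgeR, 0 at an unadjusted p under 0.05 and 0 with DESeq2). In such bulk samples more RNA per cell and a larger share of cells with the RNA cannot be told apart. A gene was called at an adjusted p below 0.05 over all tested genes and a change of at least 1.5-fold. By this rule 17.3% of the 24500 genes tested were higher and 16.8% were lower. All 10 genes are protein-coding, a class with more higher calls. Of the tested protein-coding genes, 33.5% of those with 1 or 2 exons and 25.2% of those with more were higher. Lower calls made up 11.9% and 12.5%. Of tested protein-coding genes with bodies under 10 kb, 48.3% were higher and 6.47% were lower. With GC of 55% or more these shares were 44.5% and 6.43%. The limits of 10 kb and 55% were chosen after the data had been seen. *FOSB* and *JUND* were tested and not called, and *IER3* had no counts to test. The same 7 genes had no overlap between the groups, against 27.8% of all tested genes with every ERRγ library above every GFP library. The median log2 fold change of the 9 tested genes was 0.98, against −0.10 over all tested genes and 0.12 over the tested protein-coding genes. Over the protein-coding genes with bodies under 10 kb the median was 0.58, and over those with GC of 55% or more it was 0.50. *FOSL1*, *FOSL2* and *JUN* were called in the reported fit and in all 16 alternatives that were run. *JUNB* was called in 14 of these, *EGR1* and *IER2* in 11, and *FOS* in 9. With library size as the only scaling, the median of all tested genes moved to −0.42, 2200 genes were called higher and 7566 lower in place of 4234 and 4117, and 4 of the immediate early genes were called. DESeq2 called 4875 genes higher and 2899 lower, and also called 7 immediate early genes, beside 16.3% of all genes it tested higher. With library size alone that background was 8.98%. With the percentage of no-gene reads fitted as a covariate, 3 immediate early genes were called, beside 7.24% of all genes higher.

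**Figure D1:**
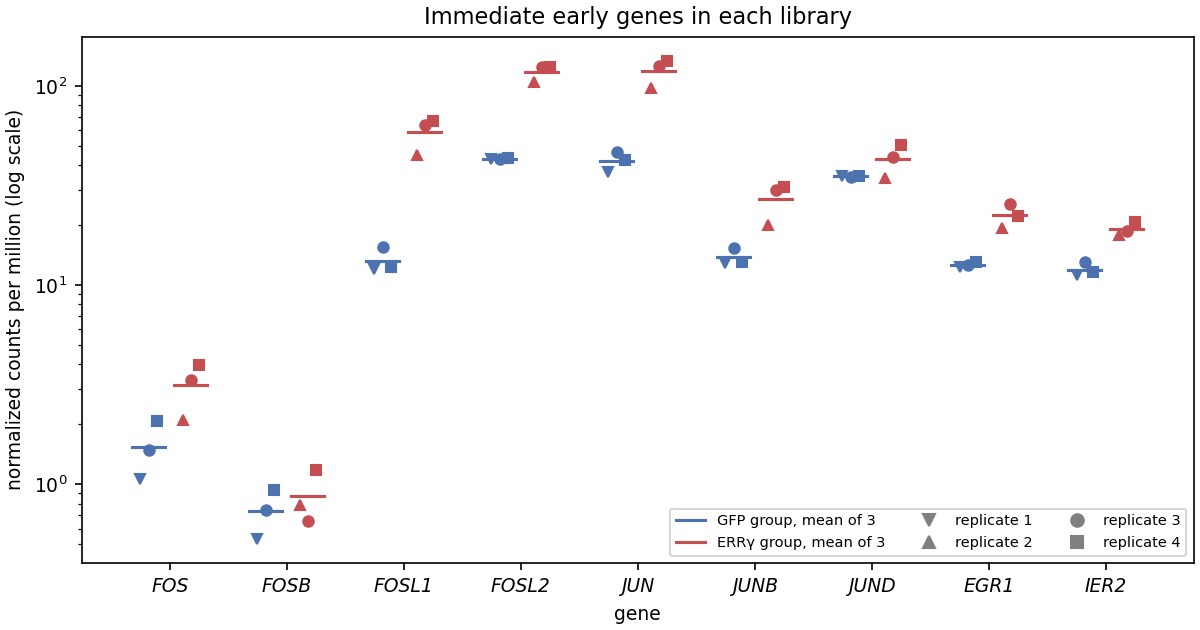
CPM (normalized counts per 1000000, log axis) of the 9 immediate early genes with counts, for each of the 3 GFP and 3 ERRγ libraries, with lines at the group means and marker shapes for replicate numbers. The groups are apart for *FOS*, *FOSL1*, *FOSL2*, *JUN*, *JUNB*, *EGR1* and *IER2* and overlap for *FOSB* and *JUND*, and ERRγ replicate 2 is the lowest ERRγ library for all but *FOSB*.

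Promoter windows from RefSeq (GRCh38.p14), 250 bases before to 50 after the start site, were found for 8 of the 10 genes, all but *FOSL1* and *IER3*. Each was searched on both strands for the CRE (TGACGTCA), its half-site (TGACGT, which lies within every CRE), the AP-1 site (TGACTCA), the CArG box, the EGR1 site (GCGTGGGCG) and the ERR response element (TCAAGGTCA). The half-site stood in 5 of the 8 windows, those of *FOS*, *FOSB*, *FOSL2*, *JUND* and *EGR1*, and in 7.98% of 35116 RefSeq promoters. Within these windows the CArG box stood in *EGR1* alone (1.29% of all promoters). The whole CRE stood in *JUND* alone (1.85%) and the AP-1 site in *FOSL2* alone (4.95%). Bases beyond the windows were not searched, so the absence of a motif holds for the window only. The EGR1 site and the ERR response element were in 0 of the 8 windows, and in 0.795% and 0.353% of all promoters. Of the genes with a half-site, *FOS*, *FOSL2* and *EGR1* were called higher and *FOSB* and *JUND* were not, and *JUN*, *JUNB* and *IER2*, without one, were called higher. The 200 bases from 250 to 51 before the start are printed for *EGR1*, with 2 CArG boxes between half-sites, for *FOS* and *FOSB*, where the half-site is at almost the same distance, for *JUND*, with the whole CRE, and for *JUN*, with none of these motifs. They read 5′ to 3′ on the gene's strand, and capitals mark the matches to the half-site, the CRE and the CArG box. *EGR1* is on the plus strand of chr5:138465229-138465428, *FOS* on the plus strand of chr14:75278578-75278777, *FOSB* on the plus strand of chr19:45467746-45467945, *JUND* on the minus strand of chr19:18281673-18281872 and *JUN* on the minus strand of chr1:58784098-58784297.
*EGR1*: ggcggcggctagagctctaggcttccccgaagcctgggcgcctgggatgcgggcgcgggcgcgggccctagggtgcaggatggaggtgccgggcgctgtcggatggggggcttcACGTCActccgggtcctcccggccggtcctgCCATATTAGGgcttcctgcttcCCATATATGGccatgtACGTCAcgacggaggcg
*FOS*: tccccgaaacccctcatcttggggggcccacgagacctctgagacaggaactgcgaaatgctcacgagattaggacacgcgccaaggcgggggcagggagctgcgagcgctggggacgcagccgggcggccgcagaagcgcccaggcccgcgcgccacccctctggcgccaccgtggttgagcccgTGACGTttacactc
*FOSB*: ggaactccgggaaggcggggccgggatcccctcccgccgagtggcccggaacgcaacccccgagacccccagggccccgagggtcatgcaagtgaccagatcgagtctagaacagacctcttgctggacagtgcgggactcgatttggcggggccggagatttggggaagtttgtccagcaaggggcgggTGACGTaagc
*JUND*: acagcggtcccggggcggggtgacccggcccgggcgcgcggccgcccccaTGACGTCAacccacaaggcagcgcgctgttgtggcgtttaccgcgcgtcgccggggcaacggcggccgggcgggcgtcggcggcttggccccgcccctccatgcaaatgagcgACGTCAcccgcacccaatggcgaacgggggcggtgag
*JUN*: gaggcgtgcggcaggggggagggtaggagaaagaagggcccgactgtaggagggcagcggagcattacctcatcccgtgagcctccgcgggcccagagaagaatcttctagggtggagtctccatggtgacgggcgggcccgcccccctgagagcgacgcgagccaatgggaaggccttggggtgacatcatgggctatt
The *EGR1* matches begin at −136 (half-site), −105 and −83 (CArG boxes) and −67 (half-site) from the start, and those of *FOS* and *FOSB* at −64 and −60. The *FOSL2* half-site begins at −66, in a window that the GENCODE annotation places inside the gene. Only full matches were sought, so near ones, such as TGACATCA in the *JUN* window beside the CRE letters TGACGTCA, are not marked. These matches are letters in a window and were not tested as binding sites.

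*FOS* (ENSG00000170345, chromosome 14, 75278826 to 75282230, plus strand, 4 exons) encodes the FOS protein that gives the family its name and is the classic transient early gene. It had 30, 46 and 69 counts in GFP replicates 1, 3 and 4, and 56, 113 and 135 in ERRγ replicates 2, 3 and 4. These were 1.06, 1.49 and 2.08 CPM against 2.09, 3.36 and 3.96 CPM. Every ERRγ library was above every GFP library, but ERRγ replicate 2 was only just above GFP replicate 4. *FOS* was 1.02 ± 0.29 (SE) higher on the log2 scale (adjusted p = 0.015, edgeR's quasi-likelihood test with Benjamini-Hochberg adjustment). The call was lost without GFP replicate 1, GFP replicate 3, ERRγ replicate 3 or ERRγ replicate 4, with log2 fold changes of 0.82, 0.99, 0.98 and 0.83 and adjusted p of up to 0.067. It was 1.33 without ERRγ replicate 2, and 0.13 with the no-gene covariate.

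*FOSB* (ENSG00000125740, chromosome 19, 45467995 to 45475179, plus strand, 4 exons) encodes a FOS protein best known for the stable short form that builds up in neurons under repeated stimulation. It had the lowest level of the genes with counts, with 15, 23 and 31 counts in the GFP libraries and 21, 22 and 40 in the ERRγ libraries. Its CPM were 0.53, 0.74 and 0.94 with GFP and 0.79, 0.65 and 1.17 with ERRγ, so the groups overlapped. The log2 difference was 0.23 ± 0.32 (SE), with an adjusted p of 0.57 in edgeR's test, and a change was not detectable at this depth. The gene body lies wholly within that of *ERCC1*, a DNA repair gene on the other strand, without shared exon bases. *ERCC1* was 1.21 higher on the log2 scale.

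*FOSL1* (ENSG00000175592, chromosome 11, 65892049 to 65900573, minus strand, 4 exons) encodes FRA-1, a FOS protein without the strong activation domain of FOS that rises with lasting ERK signalling. Its levels were 12.0, 15.5 and 12.3 CPM in the GFP libraries and 45.2, 63.2 and 66.9 CPM in the ERRγ libraries. The lowest ERRγ library was well above the highest GFP library, and the counts behind them were 338 to 478 and 1208 to 2278. *FOSL1* had the largest change of the 9 tested genes, 2.14 ± 0.16 (SE) on the log2 scale or 4.41-fold (adjusted p = 1.1e-05, edgeR's quasi-likelihood test). Over the 16 alternatives its log2 fold change ran from 1.59 to 2.40.

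*FOSL2* (ENSG00000075426, chromosome 2, 28392448 to 28417317, plus strand, 4 exons) encodes FRA-2, the other FOS-related antigen. It had 43.1, 42.7 and 43.3 CPM in the GFP libraries, which were almost the same, and 105, 124 and 124 CPM in the ERRγ libraries. The difference was 1.45 ± 0.10 (SE) on the log2 scale or 2.73-fold (adjusted p = 5.6e-06, edgeR's quasi-likelihood test), and 1.12 to 1.63 over the alternatives. The antisense lncRNA *FOSL2-AS1*, which overlaps 2233 bases of the gene, had 16.2 counts per library on average, against 2527 for *FOSL2*. It was not called, at a log2 difference of 0.96 ± 0.42 (SE).

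In the JUN family, *JUN* (ENSG00000177606, chromosome 1, 58776845 to 58784048, minus strand, 1 exon) encodes the strongest activator of the JUN proteins and the target of the JNK kinases. Its levels were 36.9, 46.4 and 42.6 CPM with GFP and 97.5, 125 and 134 CPM with ERRγ. The groups did not overlap. *JUN* was 1.502 ± 0.14 (SE) higher on the log2 scale or 2.83-fold (adjusted p = 3.1e-05, edgeR's quasi-likelihood test), with a range of 1.07 to 1.73 over the alternatives.

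*JUNB* (ENSG00000171223, chromosome 19, 12791486 to 12793315, plus strand, 1 exon) encodes a weaker activator that can oppose JUN. It had 12.8, 15.4 and 13.0 CPM with GFP and 20.05, 29.9 and 31.1 CPM with ERRγ. ERRγ replicate 2 was at 0.657 of the mean of the other 2 ERRγ libraries, yet above every GFP library. The log2 difference was 0.98 ± 0.16 (SE), 1.97-fold (adjusted p = 0.00077, edgeR's quasi-likelihood test). It was 0.58 after a correction for GC content and length and 0.34 with the no-gene covariate, and was not called in either. *JUNB* lies inside *HOOK2* on the opposite strand and shares 14.2% of its exon bases with it. Whether the counting used strand is not given in the sources used here. *HOOK2* had about as many counts (658 per library on average, against 645.5) and a log2 difference of 0.25, not called.

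*JUND* (ENSG00000130522, chromosome 19, 18279694 to 18281622, minus strand, 1 exon) encodes the JUN protein that is present in most resting cells. It had 35.2, 34.7 and 35.5 CPM with GFP and 34.6, 43.8 and 50.4 CPM with ERRγ. ERRγ replicate 2 was level with the GFP libraries and the other 2 were above them, so the groups overlapped. The log2 difference was 0.29 ± 0.13 (SE), with an adjusted p of 0.084 in edgeR's test. Without ERRγ replicate 2 it was 0.53 (adjusted p = 1.0e-06, edgeR's test). The replicate number as a block gives GFP replicate 1 and ERRγ replicate 2 no weight in the group difference. It also leaves little to measure the spread between libraries. With that block the log2 difference was 0.42 (adjusted p = 8.3e-06, edgeR's test). Both passed the p threshold but were under 1.5-fold, so neither was a call. The log2 difference of *JUND* was −0.04 with library size alone and −0.14 after the GC and length correction, so its direction depended on the scaling.

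**Figure D2:**
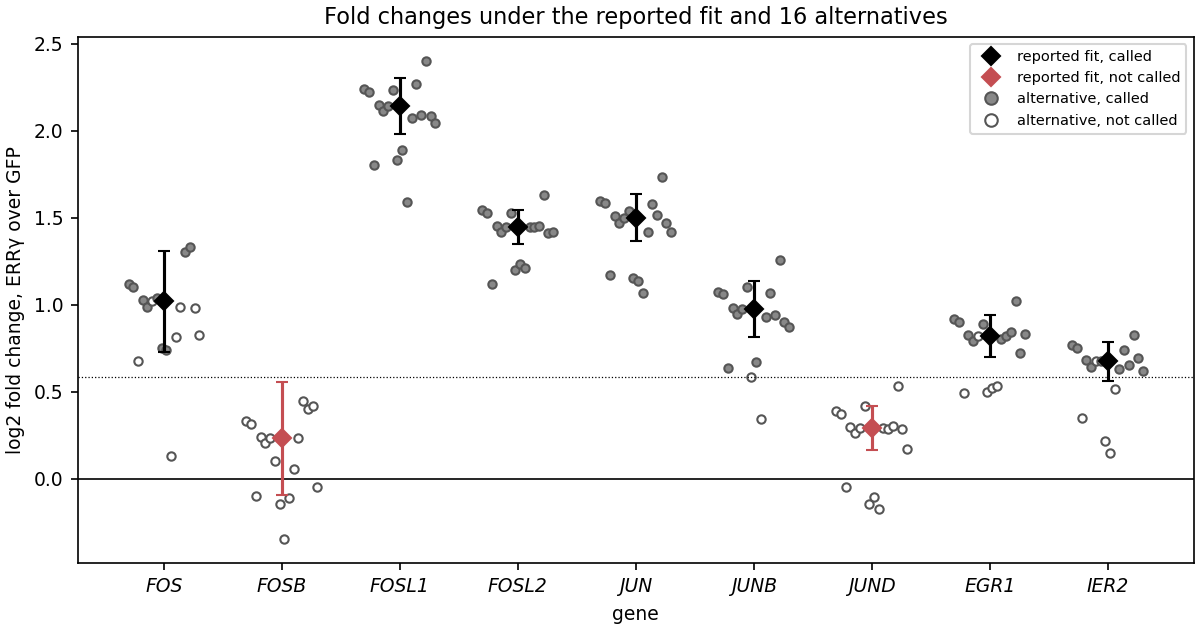
Log2 fold change (ERRγ over GFP) of each of the 9 tested genes in the reported fit (diamond, with its SE) and under 16 alternatives (circles, filled where called), with dotted line at 1.5-fold. *FOSL1*, *FOSL2* and *JUN* stay above 1.5-fold under every alternative, while *FOSB* and *JUND* fall on both sides of 0.

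To compare genes with each other, CPM were divided by exon length in kilobases (CPM per kb). In the GFP libraries *JUND* had the highest level (18.2 ± 0.202, mean ± SD, n = 3), followed by *JUN* (11.6 ± 1.32), *JUNB* (7.52 ± 0.788), *FOSL1* (7.02 ± 1.02), *FOSL2* (6.01 ± 0.0395), *EGR1* (4.04 ± 0.108), *IER2* (3.88 ± 0.301), *FOS* (0.485 ± 0.161) and *FOSB* (0.133 ± 0.0364). The libraries of *JUNB* and *FOSL1* overlapped, as did those of *EGR1* and *IER2*, and the other neighbours in this order did not. Within each GFP library *JUNB* was above *FOSL1*, while *EGR1* was below *IER2* in GFP replicate 3. In the ERRγ libraries *JUN* (32.8 ± 5.22) and *FOSL1* (30.96 ± 6.15) had the highest levels and overlapped. *JUND* (22.2 ± 4.09) came next and overlapped with *FOSL1* but not with *JUN*. *FOSL2* (16.4 ± 1.54) and *JUNB* (14.8 ± 3.32) overlapped, as did *EGR1* (7.13 ± 0.976) and *IER2* (6.19 ± 0.466). These overlaps are between libraries. Within each ERRγ library *JUN* was above *FOSL1*, *FOSL1* above *JUND*, *FOSL2* above *JUNB* and *EGR1* above *IER2*. *FOS* (0.985 ± 0.299) and *FOSB* (0.157 ± 0.0487) stayed lowest in both groups.

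The make-up of each family was then compared as each gene's share of the family's summed CPM per kb, a quantity within a library that no scaling factor changes. The summed level of the FOS family was 13.6 ± 1.00 CPM per kb (SD, n = 3) with GFP and 48.5 ± 7.98 with ERRγ. *FOSL1* made up 49.6%, 55.5% and 48.7% of it in the GFP libraries and 60.8%, 64.4% and 65.4% in the ERRγ libraries. *FOSL2* made up 44.2% ± 3.40 (SD, n = 3) with GFP and 34.1% ± 2.74 with ERRγ. *FOS* made up 3.55% ± 1.19 and 1.997% ± 0.315, a smaller share beside a higher level. In plain counts the *FOS* shares overlapped (exact permutation p = 0.2), and without GFP replicate 4 the per-kilobase difference moved from −1.56 to −0.89 percentage points. *FOSB* made up 0.972% ± 0.262 and 0.325% ± 0.0872. For all 4 the per-kilobase shares of the groups did not overlap, and the two-sided exact permutation p was 0.1, the smallest that 3 against 3 libraries allow.

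In the JUN family, summing to 37.3 ± 1.90 CPM per kb with GFP and 69.8 ± 12.5 with ERRγ, the leading gene differed between the groups. *JUND* made up 51.4%, 45.9% and 49.4% with GFP and 32.2%, 30.8% and 32.6% with ERRγ. *JUN* made up 28.7%, 32.6% and 31.5% with GFP and 48.2%, 46.9% and 46.1% with ERRγ. The shares of both did not overlap between groups (two-sided exact permutation p = 0.1, the smallest possible). The share of *JUNB* was 20.1% ± 1.23 and 21.03% ± 1.31 (SD, n = 3; exact permutation p = 0.5). The plain ratio of *JUN* to *JUND* counts was 1.05, 1.34 and 1.20 in the GFP libraries and 2.82, 2.86 and 2.66 in the ERRγ libraries. This ratio in ERRγ replicate 2 was like that of the other ERRγ libraries, whereas its CPM of both genes were lower.

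**Figure D3:**
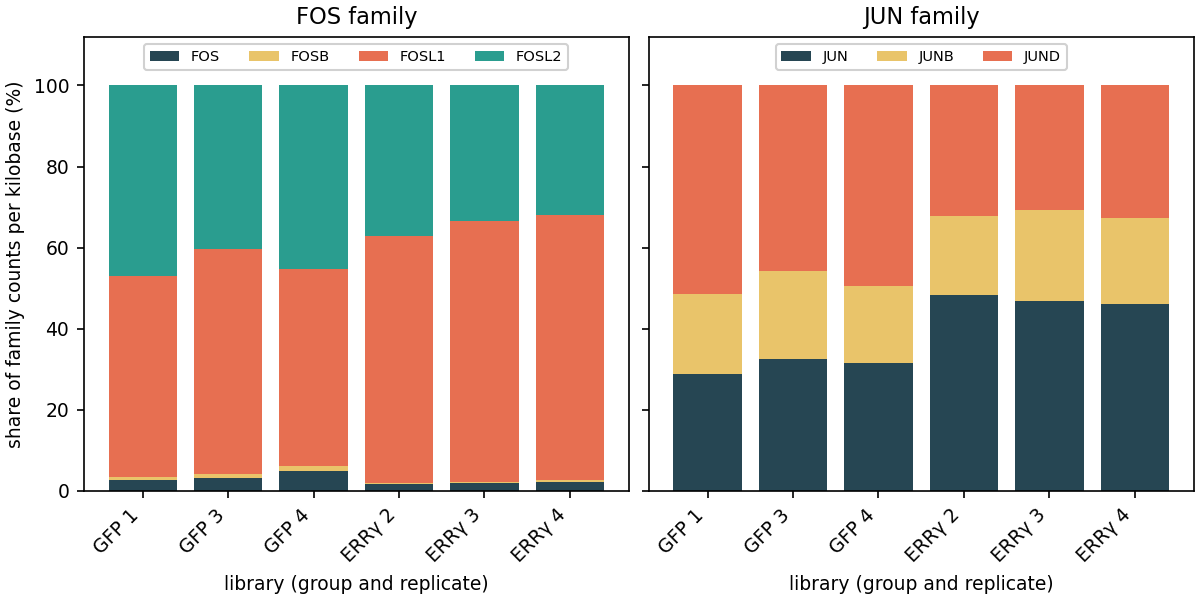
Share (percent) of each gene in the summed counts per kilobase of the FOS family (left) and the JUN family (right), 1 bar per library. *FOSL1* takes 48.7% to 55.5% of the FOS family with GFP and 60.8% to 65.4% with ERRγ, and *JUN* takes the place of *JUND* as the largest part of the JUN family.

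*EGR1* (ENSG00000120738, chromosome 5, 138465479 to 138469303, plus strand, 2 exons) had 12.3, 12.6 and 13.0 CPM in the GFP libraries and 19.3, 25.5 and 22.3 CPM in the ERRγ libraries. The groups did not overlap. *EGR1* was 0.82 ± 0.12 (SE) higher on the log2 scale, 1.77-fold (adjusted p = 0.00035, edgeR's quasi-likelihood test). It fell under 1.5-fold with library size alone (0.49), after correcting for GC and length (0.50, and 0.52 with the replicate block too) and, lastly, with the no-gene covariate (0.54). Of the related EGR factors, *EGR2* had a log2 difference of −0.01 ± 0.36 (SE), *EGR3* had too few counts to test and *EGR4* was listed at 0.

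*IER2* (ENSG00000160888, chromosome 19, 13150411 to 13154911, plus strand, 2 exons) encodes a small nuclear protein induced by growth factors. It had 11.2, 13.0 and 11.6 CPM with GFP and 17.9, 18.7 and 20.7 CPM with ERRγ, without overlap. The difference was 0.67 ± 0.11 (SE) on the log2 scale or 1.60-fold (adjusted p = 0.0007, edgeR's quasi-likelihood test), the smallest of the 7 called genes. It was 0.22 after the GC and length correction, 0.15 with the replicate block as well, 0.35 with library size alone and 0.52 with the no-gene covariate, and it was called in none of these 4. In the annotation used here 52.2% of its exon bases are shared with lncRNAs on the opposite strand, which were listed at 0.

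*IER3* (ENSG00000137331, chromosome 6, 30743199 to 30744548, minus strand, 2 exons), which encodes a stress-induced regulator of cell survival, was listed at 0 in all 6 libraries. Of the 31-base words in its transcripts, 95.7% also occur on the 261 alternate contigs of GRCh38, against 0 to 0.845% for the other 9 genes. *FLOT1* and *TUBB*, widely expressed genes of the same stretch of chromosome 6, were likewise listed at 0 in all 6 libraries, with 86.1% and 95.4% of their words on those contigs. The 0 of *IER3* therefore gives no level, and how reads with several matching places were treated for it was not tested.

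Related genes were described from lists of the early response and its pathway. The first 6 lists below hold 119 genes, of which 103 were tested, 41 were higher and 13 were lower, with a median log2 fold change of 0.30. For this and each list below, the background was 17.3% of all tested genes higher and 16.8% lower. It was larger for higher calls among protein-coding genes, at 33.5% with 1 or 2 exons and 25.2% with more. With bodies under 10 kb it was 48.3%, and with GC of 55% or more 44.5%. Whether any list differs from such a background was not tested. Among 18 other immediate early transcription factors 13 were tested, 4 were higher and 1 was lower (median 0.33). The higher ones were *CSRNP1* (1.60 on the log2 scale), the stress factor *ATF3* (1.56), the repressor *BHLHE40* (1.40) and *MYC* (1.23), and the zinc finger factor *KLF6* was lower (−0.60). Of the NR4A nuclear receptors, *NR4A1* (−0.12 ± 0.26, SE) and *NR4A3* (0.22 ± 0.20) were not called and *NR4A2* had too few counts to test. *ATF3*, the bZIP factor that dimerizes with JUN, had 2.87, 3.01 and 3.23 CPM with GFP and 7.86, 9.98 and 9.10 with ERRγ.

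Among 29 other immediate early effectors 26 were tested, 14 were higher and 2 were lower (median 0.64). The higher ones included *TRIB1*, a pseudokinase that guides proteins to degradation (3.38), and the growth-restraining *BTG2* (1.97). *INHBA*, a subunit of activin (−0.74), and *ZFP36*, which speeds the decay of AU-rich messages such as those of early genes (−0.70), were lower. *ZFP36* had 15.3, 16.5 and 16.9 CPM with GFP and 9.31, 9.03 and 11.5 CPM with ERRγ.

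Of 16 transcription factors and coactivators that act on these promoters 3 were higher, 2 were lower and 11 were not called (median −0.03). Over all tested genes 17.3% were higher and 16.8% were lower. Among the protein-coding ones 33.5% with 1 or 2 exons and 25.2% with more were higher, and 11.9% and 12.5% were lower. *SRF*, which binds the CArG box, was higher (1.10), as were its partner *ELK1* (0.86) and the CREB coactivator *CRTC3* (0.62), while the SRF partner *ELK4* (−0.63) and *CREB1* (−0.59) were lower. Of 23 genes of the MAP kinase cascades 22 were tested, 7 were higher and 5 were lower (median 0.11). *MAP2K2*, which encodes MEK2 (1.15), *ARAF* (0.91) and *RPS6KA4* (0.90) led the higher ones. *RPS6KA5*, which encodes the CREB and histone H3 kinase MSK1 (−2.34), *MAP2K6*, an activator of p38 (−1.44), and *MAPK10*, which encodes JNK3 (−0.93), led the lower ones. *RPS6KA5* had 24.8, 21.2 and 23.4 CPM with GFP and 5.16, 4.01 and 4.55 CPM with ERRγ.

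Of 16 other bZIP genes that can pair with AP-1 proteins 11 were tested, 4 were higher and 2 were lower (median −0.20). *ATF4* (1.36), *NFE2L1* (0.79) and *MAFK* (0.69) were higher, as was *MAF*, with 1 to 9 counts in the GFP libraries and 38 to 83 in the ERRγ libraries, and *JDP2*, a repressor that pairs with JUN (−0.70), and *ATF2*, another JUN partner (−0.68), were lower. Of 17 genes known as AP-1 targets 15 were tested, 9 were higher and 1 was lower (median 0.80). The largest were *SPP1*, which encodes osteopontin (5.01), the matrix protease gene *MMP3* (2.34) and the metallothionein gene *MT2A* (2.11), and *CCND1*, which encodes cyclin D1, was lower (−0.63). *SPP1* had 0.78, 0.94 and 0.97 CPM with GFP and 24.4, 32.7 and 30.1 CPM with ERRγ. Of 12 genes of ERK feedback 5 were higher and 0 were lower by edgeR (3 lower at an unadjusted p under 0.05, 0 with DESeq2), with a median of 0.24. The higher ones were the phosphatases *DUSP4* (1.60), *DUSP5* (1.56) and *DUSP6* (1.30), the ETS factor *ETV4* (1.31) and *SPRED3* (0.93). Alternatives were run for up to 3 called genes per list and direction. Of these, *KLF6*, *INHBA*, *ZFP36*, *ELK1*, *ELK4*, *CREB1*, *CRTC3*, *ARAF*, *RPS6KA4*, *MAPK10*, *NFE2L1*, *MAFK*, *JDP2*, *ATF2* and *CCND1* lost their calls under at least 1 alternative.

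**Figure D4:**
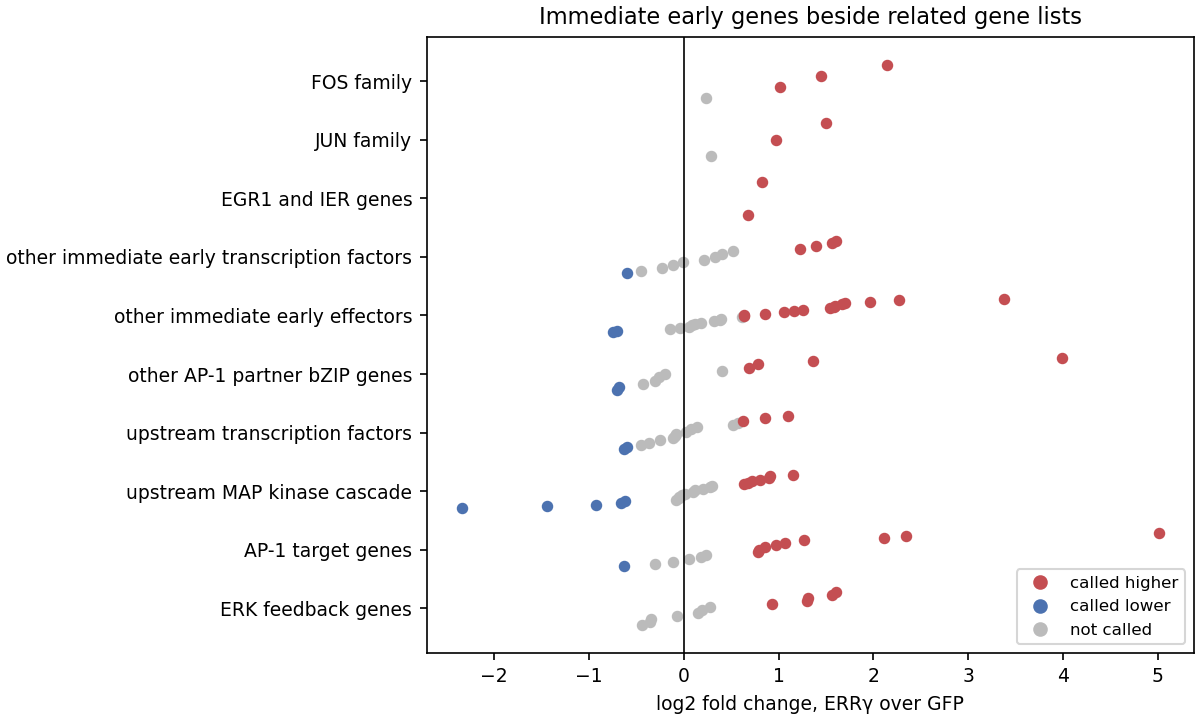
Log2 fold change (ERRγ over GFP) of each tested gene in the FOS family, the JUN family, the EGR1 and IER genes and 7 related lists, coloured by call. The called genes of the FOS family, the JUN family and the EGR1 and IER genes all lie right of 0. Every related list but that of ERK feedback has called genes on both sides, also the lists of other immediate early genes.

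The immediate early genes share features that their choice did not use. Their median gene body is 4163 bases, against 35507 for the 13746 tested protein-coding genes, their median exon GC content 58.1% against 47.7%, and 6 of 10 have 1 or 2 exons, against 7.45%. Protein-coding genes with bodies under 10 kb were called higher in 1179 of 2441 cases, against 2376 of 11305 longer ones, and those with GC of 55% or more in 1717 of 3858 cases, against 1838 of 9888 of the rest. With 1 or 2 exons the share was 33.5%, against 25.2% with more. Lower calls made up 6.47% of the short bodies and 13.7% of the longer ones, 6.43% of the GC-rich genes and 14.8% of the rest, and 11.9% and 12.5% by exon number. These limits were chosen after the data had been seen. With the GC and length correction 4 of the 10 genes were called higher (*FOS*, *FOSL1*, *FOSL2* and *JUN*), beside 15.2% of all tested genes.

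*FOSB*, *JUNB*, *JUND* and *IER2* lie on chromosome 19. Of the neighbours within 10 kb with at least 50 counts on average, several were higher. Beside *ERCC1*, given above, they were *CCDC85B*, 414 bases from *FOSL1* (1.42 on the log2 scale), and *FIBP* (1.13), *PRDX2* near *JUNB* (1.49), and *STX10*, 28 bases from *IER2* (0.96), and *NACC1* (1.37). *IQCN*, near *JUND*, was lower (−1.39), and *HOOK2*, given above, was not called. Over all tested genes 17.3% were higher and 16.8% were lower. *FOS*, *FOSL2*, *JUN*, *EGR1* and *IER3* had no neighbour with that many counts.

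The genes whose pattern over the 6 libraries was closest were found by the root mean square difference of log2 CPM, centred on the GFP mean, among 15976 genes. For *FOS* these were *H3C3* (0.099), *PLD6* (0.1501) and *RPL28* (0.155). For *JUN* they were *FAM83G* (0.042), *DHCR7* (0.048) and *COQ9* (0.048), and for *EGR1* they were *TSR1* (0.029), *HSPD1* (0.038) and *ISCA1* (0.047). *FOS*, with the fewest counts of the 3, had the least close neighbours.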

How the data were processed

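RNA was sequenced from 3 Ad CMV GFP and 3 Ad CMV 3xFlag-*Esrrg* libraries of SH-SY5Y cells, and the labels gave the groups and replicate numbers. The deposited values are raw counts per gene from HTSeq, not normalized. The submitters' processing notes name CASAVA, Trim Galore 0.6.7, STAR 2.7.9a, HTSeq 0.11.3, DESeq2 and the build GRCh38. The annotation release and strand setting are not given in the sources used here. Identifiers were matched to GENCODE release 44 (60419 found, and the others held 0.153% of the counts). Reads assigned to no gene, to several genes or to several places were left out of library sizes.

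The main test was edgeR 4.0.16 in R 4.3.3 (filterByExpr, TMM scaling, quasi-likelihood test, Benjamini-Hochberg adjustment over 24500 genes). A call needed an adjusted p below 0.05 and at least 1.5-fold. A standard error is the size of the log2 fold change divided by the root of its F value. TMM factors scale the counts per 1000000, with a prior count of 2 in log values. Alternatives were DESeq2 1.42.0, RLE factors, library size only, tests without a low-count filter, a minimum of 10 counts in all libraries, no fold cutoff, a test against 1.5-fold, each library left out, the replicate number as a block, GC and length correction (mgcv 1.9.3), both together, and the percentage of no-gene reads as a covariate (the no-gene covariate). In data simulated for ERRγ against GFP (25047 genes), edgeR recovered 193 of 200 changed genes with 10 false calls. DESeq2 (39381 genes) recovered 192 with 6. The simulation changed only these 200 genes, equally up and down, and held all others at GFP levels in both groups. In the data 8351 genes were called, and recovery and false calls were not tested with so many changed genes. Named genes are *ESRRG*, the 10 genes, up to 3 called genes per list and direction with at least 50 counts on average, neighbours within 10 kb at that count, and the 3 closest patterns of *FOS*, *JUN* and *EGR1*. *MYC*, *NR4A1*, *NR4A2*, *NR4A3*, *EGR2*, *EGR3*, *EGR4*, *TUBB*, *FLOT1*, *FOSL2-AS1*, *MAF*, *DUSP6*, *SPRED3* and the marker genes named were picked with their values in view. Some genes that this rule selects are not reported here. The genes and lists were chosen with earlier results of these data known.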

Additional observations from a re-analysis of the deposited data

Results flagged for a closer look

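Reads that HTSeq could not assign because they matched several genes, which enter no comparison above, made up 5.69%, 9.84% and 9.79% of ERRγ replicates 2, 3 and 4, each above the highest GFP library (4.87%).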

How the results depend on the processing

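*FOSL1*, *FOSL2* and *JUN* were called higher under all 16 alternatives. The number of immediate early genes called higher was 7 in the reported fit, 4 with library size only, 4 in the test against a 1.5-fold threshold, 4 with the GC and length correction, 3 with the no-gene covariate and 6 to 7 when each library was left out. *FOS* was not called with library size only (0.68), in the test against 1.5-fold (1.02, adjusted p = 0.13, edgeR) and with the covariate (0.13), and ran from 0.82 to 1.33 over left-out libraries, losing the call without GFP 1, GFP 3, ERRγ 3 or ERRγ 4. *FOSB*, not called in any fit, was −0.096 with library size only, −0.14 once corrected for GC and length, −0.35 with that and the replicate block, −0.11 with the covariate and −0.046 to 0.45 over left-out libraries. *JUND* was −0.044, −0.14, −0.10 and −0.17 under the same first 4 settings. *JUNB* was not called with the GC and length correction (0.58) and the covariate (0.34). *EGR1* was not called with library size only (0.49), in the test against 1.5-fold (0.82, adjusted p = 0.061, edgeR), with the GC and length correction (0.50), with that and the block (0.52) and with the covariate (0.54). *IER2* was not called in these 5 either (0.35, 0.67 with adjusted p = 0.29, 0.22, 0.15 and 0.52).

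Over all genes, 2200 higher and 7566 lower were called with library size only. The test against 1.5-fold called 2207 higher and 1387 lower (3594 in all), and the covariate 1773 and 1323 (3096 in all). These compare with 8351 in the reported fit, and leaving out each library gave 6738 to 10961. Of the 6 related lists 41 genes were higher in the reported fit, 25 with library size only, 27 in the test against 1.5-fold and 23 with the covariate. The lower ones, 13 in the reported fit, numbered 7 with DESeq2, 7 with RLE factors, 3 in the test against 1.5-fold, 7 with the GC and length correction and 8 to 14 over left-out libraries. The share of *JUNB* in the JUN family differed by 0.90 percentage points per kilobase and by −0.91 in plain counts. *ESRRG* and the genes named from the lists by rule (41 genes) kept direction in all 656 refits and lost the call in 85, and the neighbours, closest patterns and genes picked with their values in view were not refitted one by one. The causes of these changes were not tested.

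The labels share only the replicate numbers 3 and 4 between groups. Deviations of same-numbered libraries had correlations of 0.075 and −0.0001 across genes, and those of the other pairs ran from −0.13 to 0.14. With so few shared numbers these correlations can neither show nor exclude pairing. The reported fit did not pair the samples. With the replicate number as a block, 7 immediate early genes and 10435 genes in all were called. Such a block gives GFP replicate 1 and ERRγ replicate 2 no weight in the group difference. It leaves little to measure the spread between libraries, so its adjusted p-values and calls say little on their own. *FOS* (30 to 135 counts per library) and *FOSB* (15 to 40) were the least precise of the 9 tested immediate early genes.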
